A study of Mus musculus with 3 samples.

Results

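The genes described here are 38 postsynaptic scaffold and synaptic adhesion genes, taken by gene name from a table of 54532 genes. They are the Dlg, Dlgap, Shank and Homer scaffolds, the subunits of Ca2+/calmodulin-dependent kinase II (CaMKII) with neurogranin, regulators of spine actin, the neuroligins, neurexins and Lrrtm adhesion proteins, gephyrin, and the presynaptic scaffolds Bsn and Pclo. Hippocampal RNA of C57BL/6 mice aged 10 months was sequenced in 3 genotypes, with 1 library each. WT mice carry neither alteration. PS19 mice carry a transgene for human tau under the mouse Prnp promoter, and PS19 Zbp1+/- mice carry the same transgene and have lost 1 allele of Zbp1, whose protein senses Z-form nucleic acids. The Prnp promoter is active in many cell types of the brain. The labels give neither the sex of the animals nor whether RNA of several animals was pooled. With 1 library per genotype no difference below has a replicate check, and each compares libraries, not conditions.

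At an excitatory synapse, membrane-associated guanylate kinases of the Dlg family hold receptors and adhesion proteins at the membrane, Dlgap proteins link them to Shank proteins, and Shank proteins bind Homer and the actin cytoskeleton of the dendritic spine. Neuroligins and Lrrtm proteins on the postsynaptic side bind neurexins on the presynaptic side, and gephyrin is the scaffold of inhibitory synapses. In hippocampal pyramidal neurons these proteins set the number of receptors a spine can hold, and CaMKII and neurogranin act in the changes of synaptic strength that follow calcium entry.

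Levels are in FPKM, which are read counts set to library size and to the length of the gene, so they can be set side by side between genes. A difference is that of log2(FPKM + 1) between 2 libraries. A gene was said to rise or fall where this difference reached 1 log2 unit in size, which is 2-fold at high levels and more than 2-fold at low ones. Read ratios are ratios of recovered reads per library size with exact (Clopper-Pearson) 95% intervals. The library size is the one implied by the deposited FPKM values. It was 17287957 in PS19 and 15826984 in PS19 Zbp1+/-, where the recovered reads totalled 16400328 and 17109734. Another library size would move each ratio together with its interval. The intervals cover counting error only, since each genotype has 1 library. The reads carry no molecular identifiers, so duplicate reads were counted as separate reads.

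The PS19 library differed from WT by less than 1.5-fold on the log2(FPKM + 1) scale in each of these genes, and on the deposited scale the PS19 Zbp1+/- library had the highest level for 30 of the 38. No member rose or fell in PS19 against WT. Shank1 and Dlgap3 rose in PS19 Zbp1+/- against PS19, and Shank1 and Bsn rose in PS19 Zbp1+/- against WT. These 30 are 78.9% of the members, against 40.1% of the 12875 protein-coding genes that reached an FPKM of 1 in some library. The number was 23 after rescaling each library to the same sum, 26 after scaling by total reads and 17 after centring on pan-neuronal genes. The share of the 12875 genes was taken on the deposited scale only, so 40.1% is not the background of these counts. PS19 had the lowest level for 19 of 38 members, against 37.7% of those genes.

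The libraries held 16400328 to 17109734 recovered reads. The reads of Zbp1 itself numbered 5, 91 and 0 in WT, PS19 and PS19 Zbp1+/-, and a count of 0 allows up to 3 reads. The X-linked transcript Xist had 11062, 13350 and 0 reads in the same order, while 4 Y-linked genes (Uty, Kdm5d, Eif2s3y and Ddx3y) had 268 to 711 reads in PS19 Zbp1+/- and 0 in both other libraries. Sex and the Zbp1 genotype thus cannot be told apart in any difference of the PS19 Zbp1+/- library, and of the members Dlg3, Iqsec2 and Nlgn3 are X-linked. The 10 choroid plexus markers summed to an FPKM of 3420, 2178 and 25.8 in WT, PS19 and PS19 Zbp1+/-, where 1 of them was at 0. The choroid plexus lies beside the hippocampus, and its part in the results below was not tested.

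**Figure D1:**
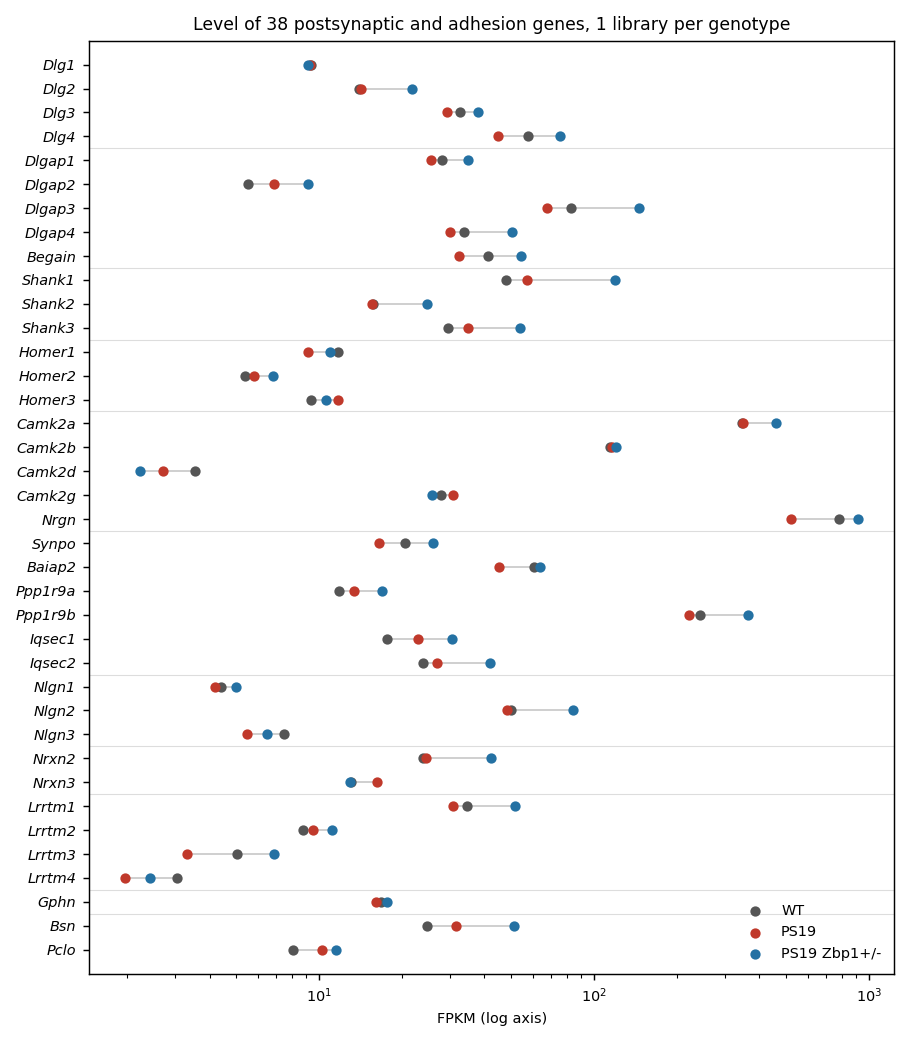
Level of each of the 38 genes in the WT, PS19 and PS19 Zbp1+/- libraries (FPKM, log axis), ordered by protein family, with 1 point per library and a line joining the 3 points of a gene. The PS19 Zbp1+/- point lies farthest to the right for 30 genes, and Camk2d, Nrxn3, Camk2g and Dlg1 are the 4 genes where it lies farthest to the left.

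Every one of the 38 members passed the filter on low values and entered each comparison. For PS19 against WT, 0 of 38 members rose, where 2.2% of 12703 genes rose, and 0 fell, where 0.291% fell. At 1.5-fold on the same scale 0 members were higher and 0 lower, beside 6.34% and 2.71% of all genes. With a pseudocount of 0.1 the differences of Lrrtm3 and Lrrtm4 were -0.59 and -0.60, past 1.5-fold. The members' median difference was -0.03, the same as the median of all genes, and the members ranged from -0.58 for Nrgn to 0.36 for Iqsec1. On the deposited scale the counting interval of the read ratio lay above 1 for 11 members and below 1 for 16, and it held 1 for 11. Intervals were taken for members only, so these counts have no share of all genes beside them. Members above 0 numbered 17 on the deposited scale, where 46.3% of all genes lay above 0. They numbered 22 after rescaling to the same sum, 19 by total reads and 27 after centring. Members above the median of all genes numbered 19, 20, 19 and 19 in the same order.

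For PS19 Zbp1+/- against PS19, 2 of 38 members rose (5.26%), where 2.0% of 12772 genes rose, and 0 fell, where 5.16% fell. At 1.5-fold 17 members were higher (44.7%), beside 9.37% of all genes, and 0 were lower, beside 12.1%. The members' median difference was 0.42, against 0.04 for all genes, and 33 of 38 lay above the median of all genes. The size and sign of that median depend on the scale. It was 0.14 when each library was rescaled to the same sum, 0.23 when scaled by total reads and -0.07 when centred on pan-neuronal genes, where the medians of all genes were -0.21, -0.12 and -0.45. The members' median lay 0.35 to 0.38 above that of all genes on these scales. Members above 0 numbered 33 on the deposited scale, where 53.7% of all genes lay above 0. They numbered 25 after rescaling to the same sum, 30 by total reads and 17 after centring. Members above the median of all genes numbered 33, 32, 32 and 33 in the same order.

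For PS19 Zbp1+/- against WT, 2 of 38 members rose (5.26%), where 1.07% of 12436 genes rose, and 0 fell, where 2.28% fell. At 1.5-fold 11 members were higher (28.9%), beside 6.71% of all genes, and 0 were lower, beside 7.12%. The members' median difference was 0.38, against 0.01 for all genes. On the deposited scale the interval of the read ratio lay above 1 for 30 members, below 1 for 5 and held 1 for 3. These counts too have no share of all genes beside them. Members above 0 numbered 31 on that scale, 28 after rescaling to the same sum or by total reads and 26 after centring. This comparison shares the PS19 Zbp1+/- library with the one before it and the WT library with the first, so the 3 comparisons are not independent of each other.

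**Figure D2:**
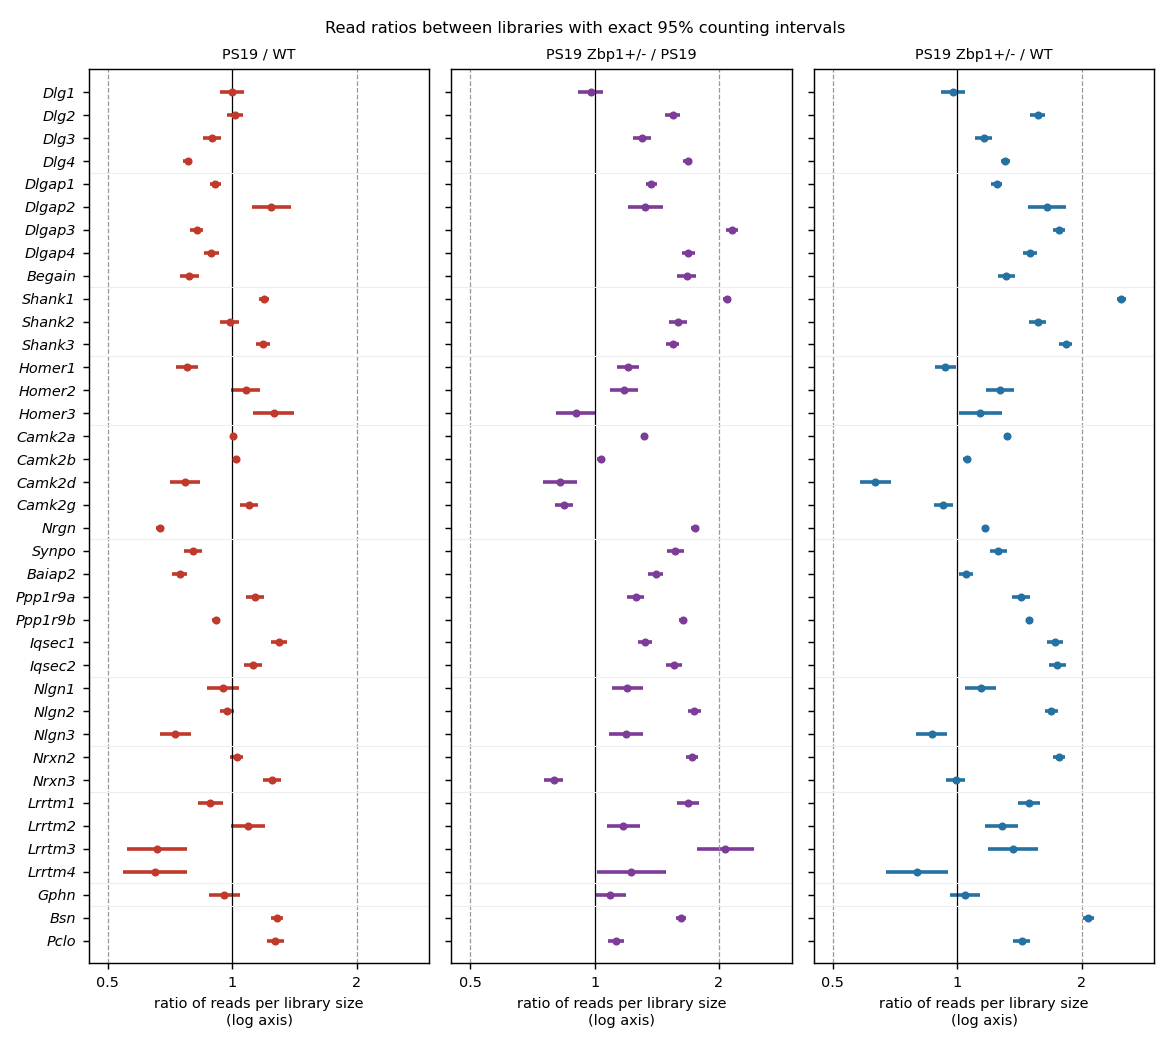
Ratio of reads per library size for each of the 38 genes (log axis) in PS19 over WT, PS19 Zbp1+/- over PS19 and PS19 Zbp1+/- over WT, with points for the ratio and bars for the exact 95% interval of counting error. Dashed lines mark ratios of 0.5 and 2. Library sizes are those implied by the deposited FPKM values, and on that scale 33 intervals lie above 1 in the middle panel. Intervals were not taken over all genes, so this count has no background. In the left panel the genes spread to both sides of 1.

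The Shank proteins are the large scaffolds that join the Dlgap layer of the postsynaptic density to Homer and actin. Shank1 (GRCm38 chr7:44310253-44360572, plus strand) had an FPKM of 48.1, 57.3 and 120 in WT, PS19 and PS19 Zbp1+/-, from 8727, 10418 and 19944 reads. Its level was highest in PS19 Zbp1+/-, and WT and PS19 lay close together below it. Shank1 rose against PS19, with a difference of 1.05 and a read ratio of 2.09 (2.04 to 2.14), and against WT, with a difference of 1.30 and a read ratio of 2.49 (2.43 to 2.56). PS19 over WT gave a read ratio of 1.19 (1.16 to 1.23). The rise against WT was kept on the 3 other scales tried (1.09 to 1.15), whereas the difference from PS19 was 0.77 after rescaling to the same sum, 0.87 after scaling by total reads and 0.56 after centring on pan-neuronal genes, all below the threshold.

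Shank3 (chr15:89499623-89560261, plus strand), whose loss in humans causes a neurodevelopmental syndrome, had an FPKM of 29.4, 34.8 and 53.8 in WT, PS19 and PS19 Zbp1+/-, from 4660, 5534 and 7818 reads. The order of the libraries was that of Shank1, with smaller steps. The read ratio was 1.54 (1.49 to 1.60) against PS19 and 1.83 (1.76 to 1.90) against WT, differences of 0.61 and 0.85 that did not reach the threshold. Shank2 (chr7:144001928-144424494) had an FPKM of 15.8, 15.6 and 24.7, from 2931, 2895 and 4215 reads. WT and PS19 could not be told apart in Shank2 within counting error (read ratio 0.986, 0.936 to 1.04), and PS19 Zbp1+/- was 1.59 times PS19 (1.52 to 1.67) and 1.57 times WT (1.495 to 1.644). All 3 Shank genes were higher in PS19 Zbp1+/- than in both other libraries on every scale tried. Their summed FPKM was 93.3, 108 and 198.

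Shank1 and Shank3 are long and rich in G and C. Shank1 is 10514 bases long with 61.4% GC, and Shank3 is 9189 bases long with 62.4% GC, where the gene length is the table's and the GC content is that of the longest protein-coding GENCODE M21 transcript. Shank2 is about as long (10768 bases) with 55.0% GC. To show what this composition looks like, 120 bases of coding sequence are printed 5′ to 3′ for the 3 members that rose in some comparison and for Shank3. Lrrtm4 and Camk2d, which have less GC and whose level was lower in PS19 Zbp1+/- than in WT, stand beside them. They were picked for that direction and do not stand for all members with less GC. The 19 members with at most 52.1% GC had a median difference of 0.21 from WT. Each printed sequence is the first stretch whose GC content is nearest to that of the gene's whole coding sequence. Capitals mark runs of at least 6 bases that are all G or C.
Shank1, chr7:44312818-44312937, plus strand, 63.3% GC: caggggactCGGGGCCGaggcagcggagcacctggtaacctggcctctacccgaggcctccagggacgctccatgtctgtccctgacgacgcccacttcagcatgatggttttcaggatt
Shank3, chr15:89499881-89500295, plus strand, across 2 exons, 65.0% GC: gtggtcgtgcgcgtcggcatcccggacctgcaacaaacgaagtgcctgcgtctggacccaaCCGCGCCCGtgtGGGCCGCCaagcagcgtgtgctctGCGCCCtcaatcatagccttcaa
Dlgap3, chr4:127194704-127194823, plus strand, 65.0% GC: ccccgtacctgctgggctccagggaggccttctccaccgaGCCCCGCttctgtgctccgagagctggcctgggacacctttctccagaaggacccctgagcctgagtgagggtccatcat
Bsn, chr9:108139484-108190051, minus strand, across 2 exons, 62.5% GC: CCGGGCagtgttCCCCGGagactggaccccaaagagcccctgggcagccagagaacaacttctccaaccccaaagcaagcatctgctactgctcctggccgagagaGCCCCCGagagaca
Lrrtm4, chr6:80021699-80021818, plus strand, 47.5% GC: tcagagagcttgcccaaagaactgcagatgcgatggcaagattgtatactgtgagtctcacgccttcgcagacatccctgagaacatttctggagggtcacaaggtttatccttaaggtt
Camk2d, chr3:126597463-126599143, plus strand, across 2 exons, 48.3% GC: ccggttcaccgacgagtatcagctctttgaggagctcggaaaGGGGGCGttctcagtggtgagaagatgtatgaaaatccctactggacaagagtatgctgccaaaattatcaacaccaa

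Across all genes tested, the difference between PS19 Zbp1+/- and the other libraries moved with GC content. The median difference of PS19 Zbp1+/- minus PS19 went from -0.19 in the lowest of 10 bins of GC content to 0.30 in the highest, and that of PS19 Zbp1+/- minus WT from -0.21 to 0.20. For PS19 minus WT it was -0.03 in the lowest bin and -0.12 in the highest. Gene length moved with the differences from WT: the median went from -0.25 in the shortest of 10 bins to 0.14 in the longest for PS19 minus WT, and from -0.19 to 0.12 for PS19 Zbp1+/- minus WT. The members had a median GC content of 52.7%, against 50.5% for all genes, and a median length of 9157 bases, against 4428. Of the 38 members 12 lay in the highest GC bin and 16 in the longest length bin.

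Shank1 stood above the median of its GC bin by 0.75 against PS19 and by 1.10 against WT. In that bin 76 of 1275 genes (5.96%) had a difference from PS19 at least as large as that of Shank1, and 11 of 1242 (0.886%) had such a difference from WT. Every count of this kind, here and below, includes the gene itself. With 5 bins of length inside the GC bins, 3 of 86 genes of like GC content and length reached the difference of Shank1 from PS19, and of 83 such genes only Shank1 itself reached its difference from WT. The Shank1 difference left after this median was taken off was 0.65 against PS19 and 0.78 against WT, both below the threshold. Shank3 stood closer to genes like it. Its difference was 0.31 above the GC bin against PS19 and 0.65 above it against WT, and 0.21 and 0.33 above the joint bin. In the GC bin 305 of 1275 genes (23.9%) matched or passed Shank3 against PS19 and 65 of 1242 (5.23%) against WT. In the joint bin the numbers were 23 of 86 and 13 of 83. For PS19 minus WT, the differences of 0.25 for Shank1 and 0.24 for Shank3 came to 0.10 and 0.09 after the joint bin was taken off, and 29 and 32 of 89 genes of like GC content and length matched or passed them.

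The same relation ran through the module. Across the 38 members Spearman's rank correlation between GC content and the difference was 0.59 for PS19 Zbp1+/- minus PS19 and 0.62 for PS19 Zbp1+/- minus WT, and it was 0.12 for PS19 minus WT. Over all genes it was 0.29, 0.31 and -0.05. These are correlations across genes of the same libraries, and genes are not independent replicates. The 19 members with at least 53.3% GC had a median difference of 0.68 from PS19, and 14 of them passed 1.5-fold. The 19 members with less GC had a median of 0.21, and 3 of them, Dlg2, Dlg4 and Lrrtm3, passed 1.5-fold. Of all genes 9.37% did, and this share was not taken by GC content. At 2-fold the share of all genes was 0.705% in the lowest GC bin and 6.98% in the highest. With the median of the GC bin taken off, the members with more and with less GC had medians of 0.42 and 0.30. After the median of the GC bin was taken off, the median of all 38 members was 0.37 against PS19 and 0.37 against WT. With bins of GC content and length it was 0.32 and 0.24.

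**Figure D3:**
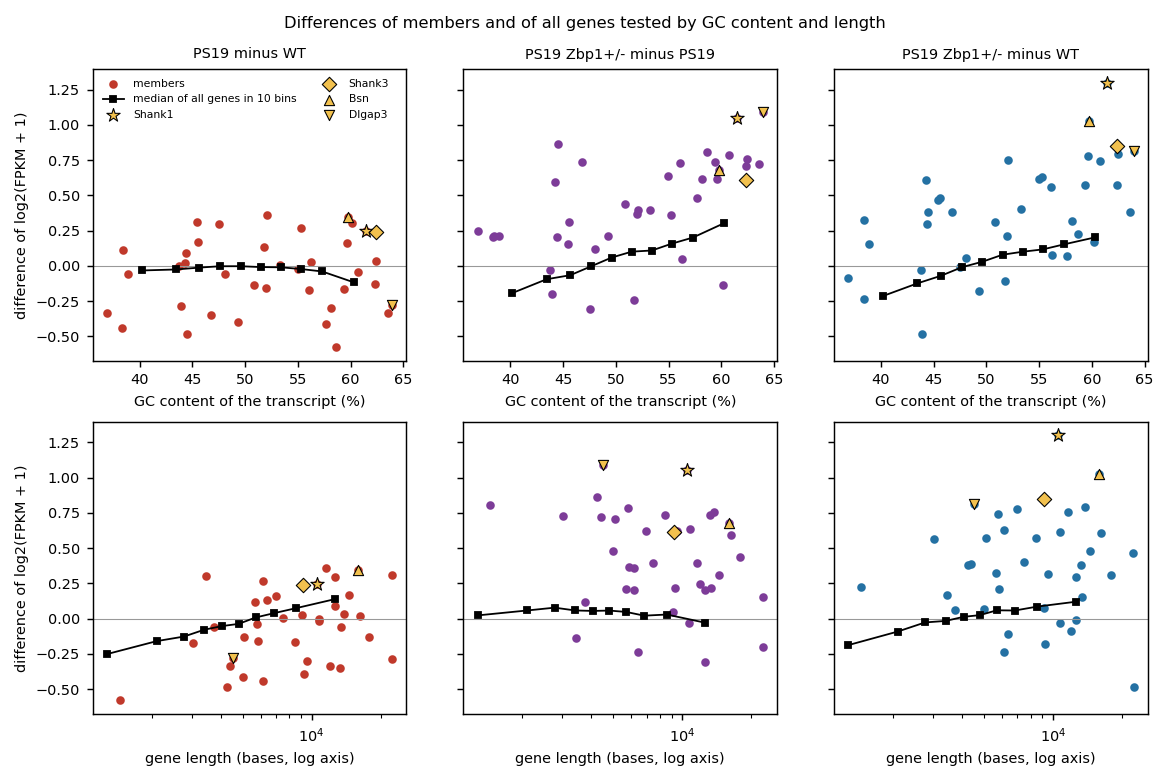
Difference of log2(FPKM + 1) of each of the 38 genes (points) against its GC content (upper row, %) or gene length (lower row, bases, log axis) in the 3 comparisons, with black squares for the median of all genes tested in each of 10 bins. In the middle and right panels of the upper row the black line climbs from -0.19 to 0.30 and from -0.21 to 0.20, and Shank1 (star) lies 0.75 and 1.10 above the highest bin, Shank3 (diamond) 0.31 and 0.65.

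Dlg4 encodes PSD-95, the main scaffold of the excitatory postsynaptic density, and Dlg1, Dlg2 and Dlg3 encode its relatives. Dlg4 had an FPKM of 57.5, 44.9 and 75.3 in WT, PS19 and PS19 Zbp1+/-. PS19 was lowest, with a read ratio of 0.780 to WT (0.760 to 0.800), and PS19 Zbp1+/- was 1.68 times PS19 (1.64 to 1.72). Dlg2 was alike in WT and PS19 (13.98 and 14.17) and had an FPKM of 21.9 in PS19 Zbp1+/-, 1.54 times PS19 (1.48 to 1.61). The X-linked Dlg3 had 32.6, 29.1 and 37.9. Dlg1 stood apart from its relatives: its FPKM was 9.32, 9.30 and 9.10, from 1726, 1726 and 1547 reads, and all 3 read ratios held 1 in their intervals (0.979, 0.914 to 1.05, against PS19). The median of the 4 genes was 0.48 for PS19 Zbp1+/- minus PS19 and -0.01 once centred on pan-neuronal genes.

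The Dlgap proteins bind the guanylate kinase domain of Dlg proteins and carry Shank proteins, and Begain is another binder of that domain. Dlgap3, had an FPKM of 82.5, 67.7 and 145 in WT, PS19 and PS19 Zbp1+/-, from 6433, 5294 and 10406 reads. PS19 was the lowest of the libraries and PS19 Zbp1+/- stood well above both. Dlgap3 rose against PS19 with a difference of 1.09 and a read ratio of 2.15 (2.08 to 2.22). Against WT its difference was 0.81 with a read ratio of 1.76 (1.71 to 1.82). The call against PS19 ended after rescaling to the same sum (0.81), scaling by total reads (0.90), centring on pan-neuronal genes (0.60) and after the median of the GC bin (0.79) or of the GC and length bin (0.74) was taken off.

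Dlgap4 had an FPKM of 33.6, 29.9 and 50.4, and Begain 41.2, 32.4 and 54.1, in WT, PS19 and PS19 Zbp1+/-. Both had the order of Dlgap3, with PS19 lowest. Dlgap1 had 28.1, 25.5 and 35.0. Dlgap2 was the least abundant of the family, at 5.52, 6.87 and 9.10, and the only one of the 5 genes with PS19 above WT (read ratio 1.24, 1.11 to 1.39). All 5 were higher in PS19 Zbp1+/- than in WT on every scale tried. They were also all higher than in PS19, except that only 3 of 5 remained above 0 when centred on pan-neuronal genes.

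Homer proteins tie Shank to metabotropic glutamate receptors and to calcium stores. Homer1 had an FPKM of 11.7, 9.11 and 11.0 in WT, PS19 and PS19 Zbp1+/-, from 2426, 1887 and 2081 reads. PS19 was lowest, at 0.776 of WT (0.731 to 0.825), and PS19 Zbp1+/- came to 0.935 of WT (0.881 to 0.992). Homer2 had 5.38, 5.80 and 6.82. Homer3 was highest in PS19, at 9.32, 11.7 and 10.6 from 553, 698 and 577 reads, with read ratios of 1.26 (1.13 to 1.41) for PS19 over WT and 0.903 (0.807 to 1.01) for PS19 Zbp1+/- over PS19. Of the bases of Homer3, 25.4% overlap Ddx49 on the opposite strand, which had 337, 324 and 394 reads. The summed FPKM of the family was 26.4, 26.6 and 28.4. Its median of 0.20 for PS19 Zbp1+/- minus PS19 turned to -0.04 after rescaling to the same sum and -0.29 after centring on pan-neuronal genes.

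The CaMKII subunits had different orders. Camk2a, the main subunit of excitatory forebrain neurons, had an FPKM of 346, 348 and 458 in WT, PS19 and PS19 Zbp1+/-, with PS19 Zbp1+/- at 1.32 times PS19 (1.30 to 1.33). Camk2b had 115, 117 and 121. Camk2d and Camk2g, which are also made outside neurons, were lower in PS19 Zbp1+/- than in PS19. Camk2d had an FPKM of 3.53, 2.71 and 2.24 from 1368, 1054 and 796 reads. It was highest in WT, and PS19 Zbp1+/- came to 0.634 of WT (0.581 to 0.693), a difference of -0.48, short of the threshold. Camk2g had 27.9, 30.6 and 25.8 from 3077, 3390 and 2614 reads, with PS19 highest (PS19 Zbp1+/- over PS19 0.842, 0.800 to 0.887). With Nrgn, 3 of these 5 genes were higher in PS19 Zbp1+/- than in PS19 on the deposited scale, 2 after rescaling to the same sum or scaling by total reads and 1 after centring on pan-neuronal genes, and the median of the 5 turned from 0.05 to -0.24, -0.14 and -0.44.

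Nrgn encodes neurogranin, which binds calmodulin in dendrites when calcium is low. It was the most abundant member, with an FPKM of 780, 522 and 913 in WT, PS19 and PS19 Zbp1+/- from 19553, 13111 and 21001 reads. PS19 was lowest by a wide margin. Its difference of -0.58 in PS19 against WT (read ratio 0.669, 0.655 to 0.684) stayed short of both the 2-fold and the 1.5-fold threshold, and it was -0.32 once the median of genes of like GC content and length was taken off. PS19 Zbp1+/- was 1.75 times PS19 (1.71 to 1.79) and 1.17 times WT (1.15 to 1.19). Nrgn is also the shortest member, at 1453 bases, and the median of all genes in the shortest length bin was -0.25 for PS19 minus WT.

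Among the regulators of spine actin and of small GTPases, Ppp1r9b (spinophilin, which brings protein phosphatase to the spine) had an FPKM of 244, 223 and 364 in WT, PS19 and PS19 Zbp1+/-. Its relative Ppp1r9a (neurabin) had 11.9, 13.5 and 16.9. Synpo (synaptopodin, part of the spine apparatus) had 20.6, 16.5 and 25.9. Synpo and Baiap2, an adaptor to the actin cytoskeleton, shared a low value in PS19. Baiap2 had 60.6, 45.2 and 63.6 from 5219, 3903 and 5023 reads, so that PS19 was 0.746 of WT (0.716 to 0.778) and PS19 Zbp1+/- 1.05 times WT (1.01 to 1.09).

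Iqsec1 and Iqsec2, exchange factors for Arf GTPases, had another order, with WT lowest and PS19 in between. Iqsec1 had an FPKM of 17.6, 22.9 and 30.4 from 3526, 4593 and 5577 reads. Its difference of 0.36 in PS19 against WT (read ratio 1.30, 1.24 to 1.36) was 0.22 once the median of its length bin was taken off and 0.21 with GC and length bins. PS19 Zbp1+/- reached 1.72 times WT in Iqsec1 (1.65 to 1.80). The X-linked Iqsec2 had 23.99, 26.9 and 41.9, and PS19 Zbp1+/- was 1.75 times WT (1.67 to 1.83). All 6 genes of this group were higher in PS19 Zbp1+/- than in PS19 on the deposited scale, after rescaling to the same sum and after scaling by total reads, and 3 of 6 were when centred on pan-neuronal genes.

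The neuroligins are postsynaptic partners of the neurexins. Nlgn2, the form found at inhibitory synapses, had an FPKM of 49.9, 48.5 and 84.3 in WT, PS19 and PS19 Zbp1+/- from 4980, 4849 and 7723 reads. WT and PS19 could not be told apart within counting error (0.972, 0.934 to 1.01), and PS19 Zbp1+/- was 1.74 times PS19 (1.68 to 1.80). Nlgn1, the form of excitatory synapses, had 4.40, 4.18 and 5.01, a read ratio of 1.20 (1.10 to 1.31) for PS19 Zbp1+/- over PS19. The X-linked Nlgn3 was highest in WT, at 7.48, 5.45 and 6.49 from 1197, 874 and 952 reads. PS19 was 0.729 of WT in Nlgn3 (0.667 to 0.796), and PS19 Zbp1+/- 0.867 of WT (0.795 to 0.945). Of the bases of Nlgn3, 41.2% are also annotated to Gm21986 on the same strand, to which at most 7 reads were counted in any library. The differences of Nlgn1 and Nlgn3 from PS19 came out below 0 after rescaling to the same sum and after centring on pan-neuronal genes, while that of Nlgn2 stayed above 0.

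Of the neurexins, the presynaptic receptors of this system, Nrxn2 and Nrxn3 are members, and they had different orders. Nrxn2 had an FPKM of 23.99, 24.6 and 42.3 in WT, PS19 and PS19 Zbp1+/- from 5717, 5871 and 9245 reads, so that PS19 Zbp1+/- alone stood high, at 1.76 times WT (1.71 to 1.82). Nrxn3 had 13.1, 16.3 and 13.0 from 2842, 3552 and 2586 reads, so that PS19 alone stood high. PS19 was 1.25 times WT in Nrxn3 (1.19 to 1.31), and PS19 Zbp1+/- was 0.795 of PS19 (0.756 to 0.837), a difference of -0.31. Nrxn2 has 62.4% GC and Nrxn3 47.5%, and both are long (13812 and 12605 bases).

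The Lrrtm genes encode postsynaptic leucine-rich repeat proteins that bind neurexins. Lrrtm1 had an FPKM of 34.7, 30.7 and 51.7, and Lrrtm2 had 8.73, 9.54 and 11.2, in WT, PS19 and PS19 Zbp1+/-. Lrrtm3 had 5.04, 3.32 and 6.87 from 370, 244 and 462 reads. PS19 was lowest in Lrrtm3, at 0.658 of WT (0.558 to 0.776), and PS19 Zbp1+/- was 2.07 times PS19 (1.77 to 2.43). Its difference from PS19 was 0.86 with the pseudocount of 1 used here and 1.03 with a pseudocount of 0.1, past the threshold. Lrrtm4 had 3.04, 1.98 and 2.43 from 322, 210 and 236 reads, with WT highest: PS19 was 0.651 of WT (0.544 to 0.777) and PS19 Zbp1+/- 0.799 of WT (0.673 to 0.948). Lrrtm3 and Lrrtm4 had the fewest reads of the 38 members and the widest intervals. All 4 Lrrtm genes were higher in PS19 Zbp1+/- than in PS19 on the deposited scale and after scaling by total reads, 3 were after rescaling to the same sum and 2 after centring on pan-neuronal genes.

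Gphn, the scaffold of inhibitory synapses, had an FPKM of 16.9, 16.2 and 17.6 in WT, PS19 and PS19 Zbp1+/-. Its difference from PS19 was 0.12 on the deposited scale, and it turned to -0.15 after rescaling to the same sum, -0.06 after scaling by total reads and -0.37 after centring on pan-neuronal genes. Bsn and Pclo encode bassoon and piccolo, giant scaffolds of the presynaptic active zone, and both had WT lowest and PS19 Zbp1+/- highest on the deposited scale, while on the 3 other scales only Bsn stayed above PS19. Bsn (chr9:108096022-108190384, minus strand) had 24.7, 31.6 and 51.2 from 6779, 8720 and 12907 reads. PS19 was 1.28 times WT in Bsn (1.24 to 1.33), and PS19 Zbp1+/- was 1.62 times PS19 (1.57 to 1.66). Bsn rose against WT with a difference of 1.02 and a read ratio of 2.08 (2.02 to 2.14). The call sits at the threshold and ended after rescaling to the same sum (0.87), scaling by total reads (0.87), centring on pan-neuronal genes (0.82) and after the median of the GC bin (0.82), of the length bin (0.90) or of the GC and length bin (0.50) was taken off. Like Shank1, Bsn is long (15938 bases) and rich in GC (59.8%), and 5 of 83 genes of like GC content and length reached its difference from WT. Pclo had an FPKM of 8.07, 10.3 and 11.6 from 3128, 3988 and 4107 reads, with PS19 at 1.27 times WT (1.21 to 1.33), and it is longer still (22457 bases) with 45.4% GC.

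Other genes of the synapse gave the background for these members. Of 27 other postsynaptic density genes, 0 rose and 0 fell in any comparison, where 1.07% to 2.2% of all genes rose and 0.291% to 5.16% fell. Their median difference was 0.01 for PS19 minus WT, 0.40 for PS19 Zbp1+/- minus PS19 and 0.23 for PS19 Zbp1+/- minus WT. At 1.5-fold 0, 5 and 7 of them were higher in the same order, beside 6.34%, 9.37% and 6.71% of all genes. At that threshold 0 were lower, beside 2.71%, 12.1% and 7.12%. The 3 with the largest difference from PS19 were Agap2, a GTPase-activating protein for Arf, with an FPKM of 236, 184 and 361, Mpp2, a further guanylate kinase scaffold, with 35.2, 29.6 and 52.0, and Shisa7, a receptor-associated membrane protein, with 27.0, 26.4 and 45.7. Of 54 other synaptic adhesion genes, 9 rose and 1 fell against PS19, beside 2.0% and 5.16% of all genes. At 1.5-fold 24 were higher and 2 lower, beside 9.37% and 12.1%. Of the 53 of them tested against WT, 5 rose and 0 fell, beside 1.07% and 2.28% of all genes. At 1.5-fold 21 of the 53 were higher and 3 lower, beside 6.71% and 7.12%. In PS19 against WT 0 of 54 rose and 1 fell, beside 2.2% and 0.291%, and 1 was higher and 1 lower at 1.5-fold, beside 6.34% and 2.71%. Their medians were -0.05, 0.52 and 0.53. The largest differences from PS19 were those of Lrfn1 (18.5, 15.2 and 40.7), a Dlg-binding adhesion protein, Nptx2 (12.8, 9.97 and 25.2), a neuronal pentraxin that gathers AMPA receptors, and Lrfn3 (10.1, 9.60 and 23.4), a relative of Lrfn1.

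Genes of neurons in general had medians of like size against PS19. The median difference from PS19 in PS19 Zbp1+/- was 0.55 for 18 presynaptic vesicle and release genes and 0.49 for 19 pan-neuronal genes, beside 0.42 for the 38 members. Against WT the medians were 0.32 and 0.21, beside 0.38. In PS19 against WT they were -0.22 and -0.27, beside -0.03. No difference between the lists was tested.

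Markers of several other cell types moved between the same libraries. The 10 microglia markers summed to an FPKM of 207, 776 and 206 in WT, PS19 and PS19 Zbp1+/-, the 9 astrocyte markers to 624, 1519 and 728, and the 10 oligodendrocyte markers to 922, 1649 and 599. In PS19 against WT, 8 of 10 microglia, 2 of 9 astrocyte and 1 of 10 oligodendrocyte markers rose, beside 2.2% of all genes. All 10 oligodendrocyte markers fell in PS19 Zbp1+/- against PS19, as did 7 of 10 microglia markers and 3 of 9 astrocyte markers. Of all genes 5.16% fell in that comparison. The 5 markers of CA1 pyramidal neurons summed to 150, 105 and 279, and 3 of 5 rose against PS19, beside 2.0% of all genes. The 6 dentate granule markers summed to 87.8, 68.5 and 56.7, and 2 of the 5 tested fell against PS19, beside 5.16%. In PS19 Zbp1+/- against WT, 1 of 5 CA1 markers rose, beside 1.07%, and 2 of 5 dentate granule markers fell, beside 2.28%. The 8 markers of CA3 and CA2 summed to 188, 157 and 177. In PS19 Zbp1+/- 1 of them fell against PS19 and 1 against WT, beside 5.16% and 2.28% of all genes. The 7 thalamus and striatum markers summed to 41.4, 57.0 and 23.3. Of the 6 tested in PS19 against WT 2 rose, beside 2.2% of all genes. In PS19 Zbp1+/- 2 of 7 fell against PS19, beside 5.16%, and 1 of 6 tested fell against WT, beside 2.28%. Endothelial markers, 7 in number, summed to 80.2, 84.3 and 82.4, and the 9 interneuron markers to 536, 419 and 462. In both of these lists 0 markers rose or fell in any comparison. None of these markers was at 0 in any library. In bulk tissue, fewer cells of a type and less RNA per cell cannot be told apart, and the part these markers have in the differences of the members was not tested.

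**Figure D4:**
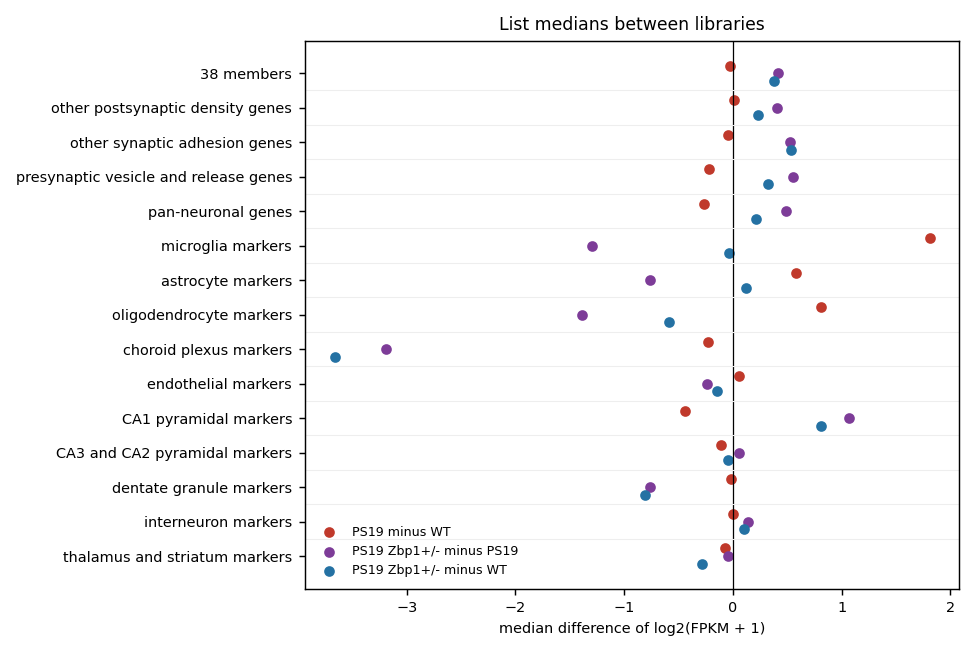
Median difference of log2(FPKM + 1) for the 38 genes and for 14 lists of synaptic, neuronal and other cell type genes in PS19 minus WT, PS19 Zbp1+/- minus PS19 and PS19 Zbp1+/- minus WT, with 1 point per list and comparison. The 38 genes (-0.03, 0.42 and 0.38) lie among the synaptic and neuronal lists, while the microglia, oligodendrocyte and choroid plexus medians lie at -1.30, -1.39 and -3.19 in PS19 Zbp1+/- minus PS19.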

How the data were processed

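Hippocampal RNA was sequenced in 3 libraries, extracted with TRIzol and prepared with the NEB Next Ultra RNA kit per the labels' protocols. The submitters' processing notes name Trim Galore 0.6.5, STAR 2.5.3a, featureCounts 2.0.4 and the build mm39. Gene positions in the table were compared with GENCODE M21 (GRCm38): 54409 gene IDs were found, 98.3% at the same position, among them 37 of 38 members (all but Lrrtm2). The table's positions are the ones printed. Strandedness is not given in the sources used here, so reads of overlapping genes cannot be told apart.

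The authors deposited FPKM values, 1 column per library. Values times gene length were whole multiples of 1 step for 100% of values (tolerance 0.05), so reads were recovered: 16746085, 16400328 and 17109734 in WT, PS19 and PS19 Zbp1+/-. The implied library sizes of 17253479, 17287957 and 15826984 show that the deposited FPKM values carry a scaling other than these totals.

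Differences of log2(FPKM + 1) were taken over protein-coding genes, keeping those that reached an FPKM of 1 in either of the libraries compared. With 1 library per genotype no test across samples was possible and no p-value is given. GC content came from the longest protein-coding transcript, which is a short coding form for Homer1. Overlapping genes and copies (BLAST 2.17.0, 90% identity over 300 bases) were listed. The only matches were genes annotated at the members' own positions. All members are described, with reads and ratios for the Shank genes and the 5 largest increases and decreases per comparison, and 3 genes from each of the other postsynaptic density and adhesion lists. The members and lists were chosen with earlier results of these data known. Scripts were tested on simulated data. The software was matplotlib 3.10.9, scipy 1.17.1, pandas 2.3.3 and numpy 2.4.6 under Python 3.11.15.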

Additional observations from a re-analysis of the deposited data

How the results depend on the processing

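The alternatives were pseudocounts of 0.1 and 0.5, no filter, a mean FPKM of at least 5, 3 other scales, GC and length bins, read ratios and a 1.5-fold threshold. The median for PS19 minus WT (-0.03) was 0.093 after rescaling to the same sum, 0.24 after centring on pan-neuronal genes and -0.10 after length bins. For PS19 Zbp1+/- minus PS19 (0.42) it was 0.48 at a mean FPKM of at least 5, 0.14 after rescaling to the same sum, 0.23 after scaling by total reads, -0.073 after centring on pan-neuronal genes, 0.37 after GC bins and 0.32 after GC and length bins, and the 2 members that rose became 0 under each of the last 5 and 17 at 1.5-fold. For PS19 Zbp1+/- minus WT (0.38) it was 0.23 after rescaling or scaling by total reads, 0.17 after centring and 0.24 after GC and length bins. The 2 members that rose there became 1 under rescaling, total reads, centring, GC bins or length bins, 0 after GC and length bins and 11 at 1.5-fold. The cause was not tested. No member fell under any of these alternatives. No paired analysis was possible because each genotype has 1 library, and for the same reason no library could be left out. Intervals cover counting error only, which was widest for Lrrtm3 and Lrrtm4, so spread between animals is not known.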
